A study of Mus musculus with 6 samples.

Results

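The Nodal and Lefty feedback loop was followed through 10 genes: the ligand gene Nodal, the co-receptor gene Tdgf1, the receptor genes Acvr1b, Acvr2a and Acvr2b, the effector genes Smad2, Smad3 and Foxh1, and the antagonist genes Lefty1 and Lefty2. Every probe set whose only gene symbol in the array annotation was one of these names was taken, which gave 20 probe sets of 45101 on the array. All 10 genes, through 18 of their probe sets, passed the filter on low values, a mean log2 intensity of at least 4 over the arrays, that left 13815 genes to test. Both groups were mouse embryonic stem cells of the Dicer -/- line 27H10 (27H in the sample titles), kept undifferentiated and taken 24 h after transfection. Dicer cuts microRNAs out of their precursors, so the control cells, like the treated ones, lack their own Dicer-dependent microRNAs. The control group (3 arrays) received siRL, an siRNA against Renilla luciferase. The other group (3 arrays) received Dharmacon mimics of the mmu-miR-290 cluster, and the labels do not say which of its microRNAs were included. All samples come from a single line, no Dicer-proficient cells were part of the comparison, and the labels do not state whether the replicates were separate cultures.

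Nodal is a secreted ligand of the TGF-beta superfamily. It binds a complex of type II and type I activin receptors together with the co-receptor Cripto, the product of Tdgf1, and the type I receptor then phosphorylates Smad2 and Smad3, which act on DNA with Smad4 and partners such as Foxh1. Nodal itself and both Lefty genes are transcriptional targets of this signal; the Lefty proteins bind Nodal and its co-receptor and block the pathway, so that Nodal feeds back on itself both positively and negatively. In the embryo the loop patterns the mesendoderm and the left-right axis, and in cultured embryonic stem cells it is active and its genes are well expressed. Lefty transcripts have been reported as targets of microRNAs of the related miR-430 and miR-302 families.

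The mature microRNAs of the cluster are shown because their seeds, bases 2 to 8 from the 5′ end and here in capitals, are the stretch that pairs with target transcripts. RefSeq's table on GRCm38.p6 gave 13 mature sequences on the plus strand of 7 microRNA genes, at chr7:3218639-3220837. Of the 6 mature 3p sequences, 5 share the hexamer AAGUGC at the start of the seed, and 3 of these share the whole seed AAGUGCU.
mmu-miR-291a-3p: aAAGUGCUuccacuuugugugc
mmu-miR-294-3p: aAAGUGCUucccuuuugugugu
mmu-miR-295-3p: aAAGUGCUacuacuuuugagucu
mmu-miR-290a-3p: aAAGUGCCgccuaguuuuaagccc
mmu-miR-291b-3p: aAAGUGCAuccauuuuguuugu
mmu-miR-293-3p: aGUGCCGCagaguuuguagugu
The 5p sequences have other seeds, and 3 of them share CUCAAAC, as the following one shows. The microRNA miR-292a-3p was not matched.
mmu-miR-290a-5p: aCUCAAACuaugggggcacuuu
Transcript sequences of the loop genes were not used here, so no pairing with these seeds was examined.

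The deposited values are linear intensities, 1 for each probe set and array, with array medians between 41.7 and 44.9. On the log2 scale the tested probe sets correlated at 0.963 to 0.969 within groups and at 0.959 to 0.964 between them, and no array stood apart. With 3 arrays a group the precision is limited throughout, and probe sets differ in how strongly they bind, so levels of different genes are not compared. Markers of embryonic stem cells, 9 of 9 past the filter, were bright on all arrays, with summed intensities of 105733 to 114449 in the control group and 112601 to 118336 in the mimic group. Fibroblast markers, of feeder cells for instance, passed the filter in 4 of 8 cases. Their sums lay between 427 and 454 in the control group and between 383 and 466 in the mimic group. The collagen genes Col1a1, Col1a2 and Col3a1 and the gene Postn did not pass the filter. Dcn, Lum, Thy1 and Pdgfrb did, with a highest value of 203. On the log2 scale the mimic group was lower for Dcn (−0.90) and Lum (−1.22) and higher for Pdgfrb (0.43) and Thy1 (0.10), which the sums do not show. Primitive endoderm markers, 7 of 7 past the filter, were dim, with sums of 357 to 451 in the control group and 437 to 533 in the mimic group. Higher in the mimic group were Gata6 (log2 fold change 1.57), Afp (0.66), Sox7 (0.63), Gata4 (0.28), Sox17 (0.21) and Dab2 (0.10). Foxa2 (−0.51) was lower. The 4 measured mesendoderm markers had sums of 259.9 to 268 in the control group and 203 to 259.7 in the mimic group. No marker of these 4 lists passed the main limma test below, and the alternative setting described there called Esrrb higher and Tfcp2l1 lower, both stem cell markers. Their part in the results was not tested. In bulk RNA fewer cells of a kind and less RNA per cell cannot be told apart.

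Of the 10 loop genes, the antagonists Lefty1 and Lefty2 fell after transfection of the miR-290 mimics, to 0.467 and 0.418 of their control levels. No member was called higher in the main test, although all 3 mimic values of Nodal lay above its control values. Genes were compared with limma on log2 values over all tested probe sets, with the Benjamini-Hochberg adjusted p under 0.05 as the threshold, and the brightest probe set stood for a gene. Over all 13815 genes 1.38% were lower and 0.456% were higher by the same rule, against 2 and 0 of the 10 members; over all probe sets the shares were 0.946% and 0.343%. At an unadjusted p under 0.05 in limma, 4 members were lower and 1 was higher, where 14.5% and 9.99% of all genes were. A second setting of the same test, in which the prior variance follows the signal level and is estimated robustly (the level-dependent robust prior), called 3 members lower, Lefty1, Lefty2 and Smad3, and 1 higher, Nodal. That setting called 9.43% of all genes lower and 6.2% higher. The 3 mimic values lay wholly below the control values in 4 members (Lefty1, Lefty2, Smad3 and Acvr2a) and wholly above them in 2 (Nodal and Tdgf1), where 19.3% and 16.2% of all genes did so. The median log2 fold change of the 10 members was −0.08, beside −0.01 for all genes tested. The shares over all genes take in genes down to a mean log2 of 4 and are not matched to the members for signal level. The members were also chosen with earlier results of these data known, so their counts beside these shares are a description.

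**Figure D1:**
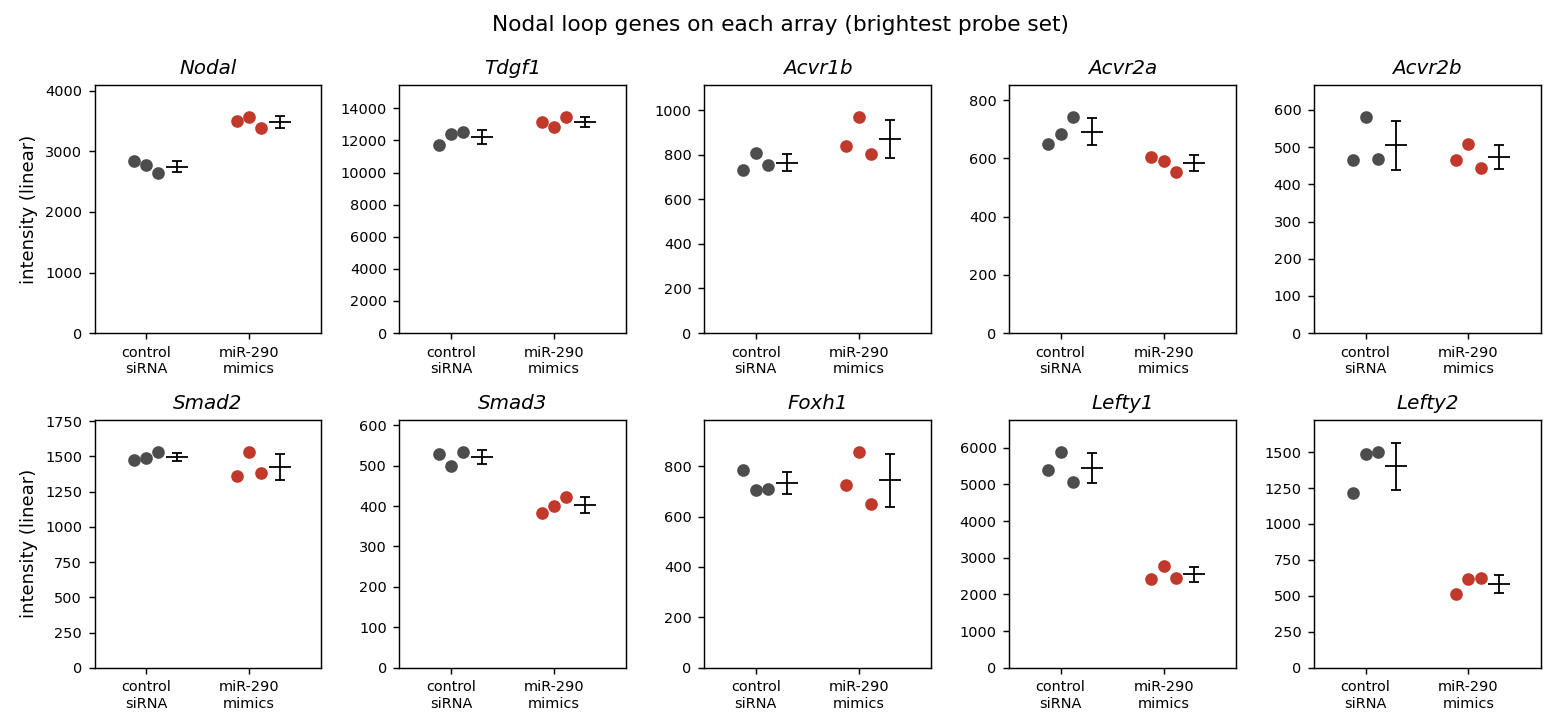
Linear intensity (vertical axis, from 0, a scale of its own for each gene) of the brightest probe set of each loop gene on the 3 control siRNA arrays (grey) and the 3 miR-290 mimic arrays (red); the bar beside each group is the mean with its SD. The mimic points of Lefty1 and Lefty2 lie far below the control points, those of Nodal lie above them, and those of Foxh1, Smad2, Acvr1b and Acvr2b overlap with them.

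The ligand gene Nodal read 2836, 2774 and 2644 on the control arrays and 3509, 3565 and 3382 on the mimic arrays, by its brightest probe set. All 3 mimic arrays were above all 3 control arrays. The difference was 1.27-fold, a log2 fold change of 0.34 ± 0.07 (SE) with a 95% interval of 0.16 to 0.52, and it did not pass over all probe sets (limma adjusted p = 0.0856). The second Nodal probe set, at 792, 710.0 and 725 in the control group and at 1044, 932 and 906 in the mimic group, again had no overlap. Its log2 fold change of 0.37 ± 0.09 (SE) had a limma adjusted p of 0.118. With the level-dependent robust prior both Nodal probe sets were called higher (limma adjusted p = 0.00244 and 0.0169). The brighter one was called by that prior whichever array was left out, with log2 fold changes from 0.31 to 0.36 and limma adjusted p-values from 0.00614 to 0.0158.

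Tdgf1 encodes Cripto, the membrane-anchored co-receptor that Nodal needs to signal through Acvr1b, and it is also a marker of undifferentiated stem cells. Its single probe set read 11716, 12405 and 12519 on the control arrays and 13178, 12848 and 13445 on the mimic arrays. The groups did not overlap, but the log2 fold change was only 0.11 ± 0.07 (SE), with a 95% interval of −0.07 to 0.28, and passed under neither prior (limma adjusted p = 0.45 and 0.16). An increase of more than 0.28 on the log2 scale lies outside that interval.

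Of the receptor genes, none passed under either prior. Acvr1b, the type I receptor ALK4 that phosphorylates Smad2 and Smad3, read 732, 808 and 754 in the control group and 841, 969 and 806 in the mimic group. One mimic array lay within the control range, and the log2 fold change was 0.19 ± 0.10 (SE; limma adjusted p = 0.376). The ligand-binding type II receptor gene Acvr2a read 649.9, 684 and 741 in the control group and 606, 590.0 and 553 in the mimic group, so its groups did not overlap. Its log2 fold change was −0.25 ± 0.09 (SE), with a 95% interval of −0.46 to −0.03 and limma adjusted p-values of 0.206 and, with the robust prior, 0.11. A dimmer Acvr2a probe set, between 111 and 175 over the arrays, gave −0.18 ± 0.18 (SE) with overlapping groups. The other type II receptor gene, Acvr2b, read 467, 580.4 and 468 against 465, 509 and 444, with a log2 fold change of −0.09 ± 0.12 (SE; limma adjusted p = 0.723). A further tested Acvr2b probe set gave −0.03 ± 0.13 (SE). One more probe set each of Acvr1b and Acvr2b stayed below the filter, at 5.04 to 24.2 and 4.73 to 29.4, and was not tested.

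The receptor-activated Smads carry the signal to the nucleus. Smad2 was at 1472, 1489 and 1527 on the control arrays and at 1363, 1529.9 and 1382 on the mimic arrays. One mimic array was above every control array and the other 2 were below, and the log2 fold change of −0.07 ± 0.08 (SE) had a 95% interval of −0.27 to 0.13 (limma adjusted p = 0.655). The second Smad2 probe set gave −0.03 ± 0.17 (SE). Smad3 was at 529.8, 500.1 and 533 in the control group and at 383, 401 and 422 in the mimic group, with every mimic array below every control array. Its log2 fold change was −0.38 ± 0.08 (SE), 1.30-fold lower, with a 95% interval of −0.57 to −0.18. It did not pass the main test (limma adjusted p = 0.0834) but was called lower with the robust prior (limma adjusted p = 0.0277). That call held in 2 of 6 cases when 1 array was left out: it remained without control replicate 2 and without mimic replicate 3, and ended without control replicates 1 and 3 and without mimic replicates 1 and 2, where the adjusted p rose to at most 0.1. The other Smad3 probe sets were dim, at 42.0 to 67.3 and at 3.33 to 52.6, and gave −0.28 ± 0.16 and −0.34 ± 1.21 (SE), neither called. Whether Smad2 and Smad3 differ in their response was not tested.

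Foxh1, the forkhead factor that takes activated Smads to the regulatory regions of Nodal and the Lefty genes, was not called under either prior. Its brightest probe set read 785, 705 and 709 in the control group and 725, 856 and 650.3 in the mimic group, and the control values lay inside the range of the mimic values. The log2 fold change was 0.01 ± 0.13 (SE), with a 95% interval of −0.31 to 0.33 (limma adjusted p = 0.964). The second Foxh1 probe set read 712, 718 and 601 in the control group and 564, 594 and 595 in the mimic group, so its mimic values all lay below its control values. It gave −0.21 ± 0.10 (SE; limma adjusted p = 0.319) and the dimmest one, with overlapping groups, −0.11 ± 0.15 (SE), and neither passed. Its sign was not settled, since it was negative in the mean of the 3 probe sets (−0.10).

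**Figure D2:**
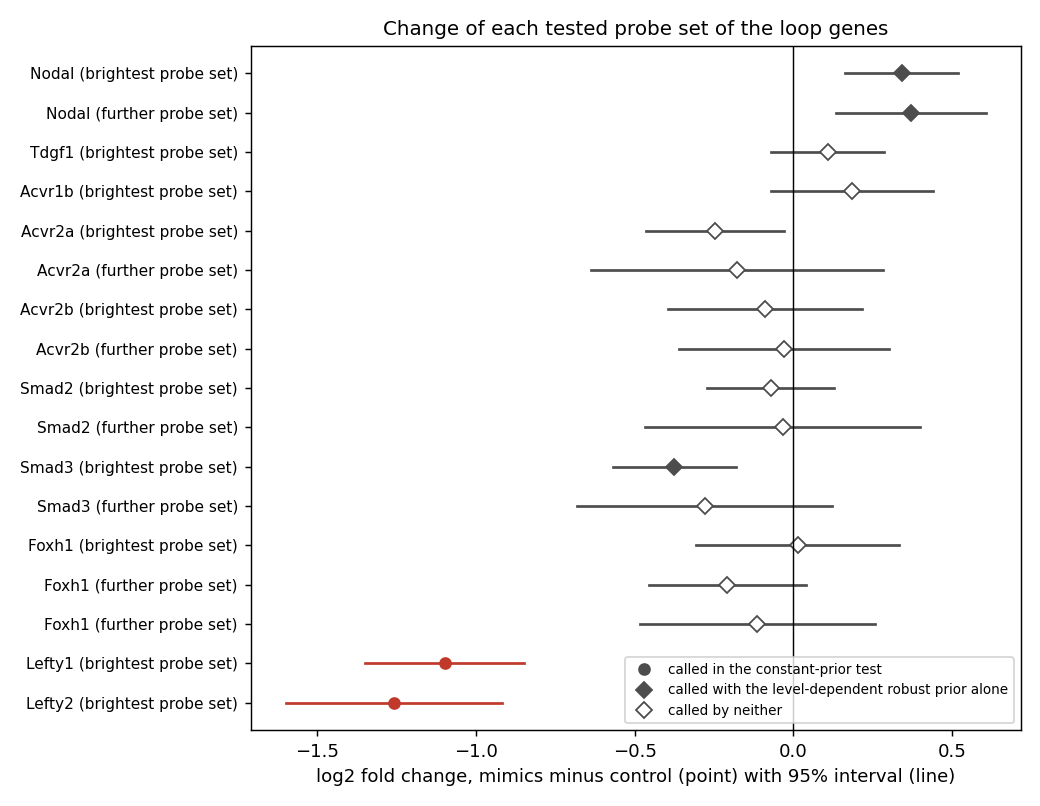
Log2 fold change of the mimic arrays against the control arrays (horizontal axis) for 17 of the 18 tested probe sets of the loop genes, with the limma 95% interval as a line; the dim Smad3 probe set with an interval of −3.40 to 2.72 is left out. The intervals of Lefty1 and Lefty2 lie below −0.8, those of both Nodal probe sets lie above 0, and most of the others cross 0.

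Among the brightest probe sets of the members, those of the antagonist genes had the largest changes. Lefty1 read 5404, 5885 and 5066 on the control arrays and 2428, 2772 and 2442 on the mimic arrays. The highest mimic value was far below the lowest control value. Expressed as a ratio the control level was 2.14 times the mimic level (log2 fold change −1.10 ± 0.10 SE, 95% interval −1.35 to −0.85, limma adjusted p = 0.0292). Lefty2 read 1214, 1489.9 and 1500.4 in the control group and 512, 618 and 625 in the mimic group. These groups, too, were far apart, with a control level 2.39 times that of the mimics (log2 fold change −1.26 ± 0.13 SE, 95% interval −1.60 to −0.92, limma adjusted p = 0.0386). Each of the genes rests on 1 probe set. The genes are close paralogs, the probe sequences were not used here, and binding of one transcript to the probes of the other was not tested.

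Both calls were near the threshold, and the fold changes varied less than the calls. When any 1 of the 6 arrays was left out, neither gene passed the main test, with limma adjusted p-values of 0.113 to 0.138 for Lefty1 and 0.119 to 0.14 for Lefty2. With the robust prior both passed in all 6 such cases, with log2 fold changes from −1.16 to −1.04 and from −1.36 to −1.17. The Lefty2 call also ended when the arrays were centred on their medians (−1.21, limma adjusted p = 0.0502), and both ended without the filter on low values (limma adjusted p = 0.117 and 0.126).

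The responses of the antagonists and their ligand were then set against each other within each array, which removes any difference in the scale of the arrays. The log2 value of Nodal was subtracted from that of Lefty1, and the control mean of this difference was set to 0. The control arrays then lay at −0.05, 0.10 and −0.05, and the mimic arrays at −1.52, −1.35 and −1.45. The Lefty1 reading thus dropped against that of Nodal by 1.44 on the log2 scale, or 2.71-fold (SD 0.087 in the control group and 0.085 in the mimic group, n = 3 each; two-sided exact permutation p = 0.1). For Lefty2 against Nodal the control arrays lay at −0.24, 0.08 and 0.16 and the mimic arrays at −1.80, −1.55 and −1.46. That is a difference of −1.60, or 3.03-fold (SD 0.216 and 0.176, n = 3 each; two-sided exact permutation p = 0.1). With 3 arrays against 3 a p of 0.1 is the smallest this test can give, so it cannot pass 0.05, and over the 3 pairs compared these p-values adjust to 0.15. In both pairs every mimic array lay below every control array.

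Lefty1 and Lefty2 showed no difference in response beyond the spread between arrays. Their within-array difference lay at 0.19, 0.02 and −0.21 in the control group and at 0.28, 0.20 and 0.00277 in the mimic group, and the groups overlapped. The shift was 0.16 (SD 0.2 and 0.143, n = 3 each; two-sided exact permutation p = 0.4, adjusted 0.4). As above, this permutation test cannot give a p below 0.1, so it cannot decide whether the 2 responses differ.

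**Figure D3:**
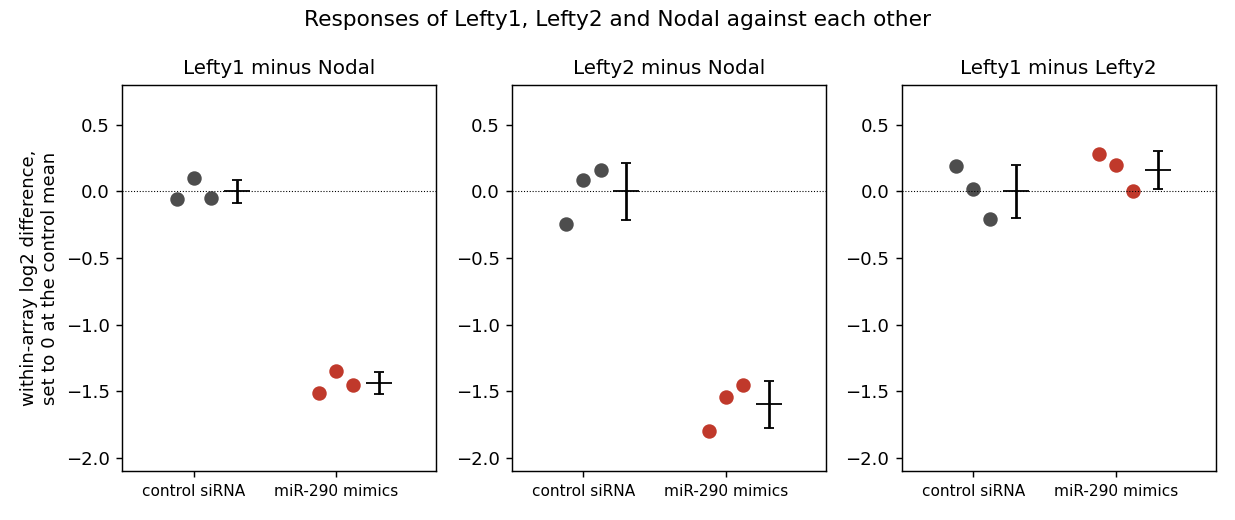
Within-array difference of log2 intensities (vertical axis, set to 0 at the control mean) for Lefty1 minus Nodal, Lefty2 minus Nodal and Lefty1 minus Lefty2, on the control siRNA arrays (grey) and the miR-290 mimic arrays (red), with the group mean and SD beside the points. Both Lefty genes shifted by −1.44 and −1.60 against Nodal, while their shift against each other was 0.16 with overlapping groups.

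Beyond the 10 members, 33 further genes of the pathway were read from lists made by role. Of these 2 (Gdf1 and T) had no probe set with their symbol alone, 4 (Inhba, Cer1, Dand5 and Lhx1) were below the filter, and 27 were tested. In the main test 1 fell, Acvr1, and 0 rose, where 1.38% of all genes were called lower and 0.456% higher. At an unadjusted p under 0.05 in limma 9 were lower and 0 higher, where 14.5% and 9.99% of all genes were. With the robust prior 9 of the 27 were called lower and 0 higher, where 9.43% and 6.2% of all genes were. The median log2 fold change of the 27 was −0.18, against −0.01 over all genes. These lists, too, were chosen with earlier results of these data known, and the shares over all genes are not matched for signal level. The counts are therefore given as a description. The genes called by the robust prior alone are named below because of their values. Whether those calls hold with 1 array left out was not tested.

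Acvr1 encodes the type I receptor ALK2, which mainly serves BMP ligands. Its brightest probe set read 345, 312 and 355 on the control arrays and 184 to 204 on the mimic arrays. The groups were far apart (log2 fold change −0.78 ± 0.09 SE, limma adjusted p = 0.0408). The call rests on that probe set, since 2 dimmer ones gave −0.14 and −0.28 and did not pass, and the mean of the 3 gave −0.40 (limma adjusted p = 0.353). Like the Lefty genes it was not called by the main test without any 1 array (limma adjusted p = 0.121 to 0.15) and was called by the robust prior in all 6 cases. Cfc1, a co-receptor of the Cripto family, gave −0.11 ± 0.11 (SE; limma adjusted p = 0.618).

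Among ligands and the enzymes that process them, 4 were tested and 0 passed in the main test. Gdf3, a TGF-beta superfamily ligand of stem cells, averaged 7922 ± 622 on the control arrays and 7629 ± 329 on the mimic arrays (SD, n = 3 each), with a limma adjusted p of 0.783. Inhbb, which encodes an activin subunit, read 1040.1, 1029.9 and 1090.3 on the control arrays and 753, 785 and 825 on the mimic arrays. Furin, a convertase that cleaves the Nodal precursor, read 235, 305 and 286 and then 174, 167 and 170.1. In both genes all mimic values were below all control values, with log2 fold changes of −0.42 ± 0.07 and −0.68 ± 0.12 (SE). Neither passed the main test (limma adjusted p = 0.0692 and 0.0676), and both were called lower by the robust prior (limma adjusted p = 0.00445 and 0.0109). A dimmer Inhbb probe set read 114, 117 and 132 on the control arrays and 91.9, 75.6 and 14.4 on the mimic arrays. It gave −1.38 ± 0.74 (SE) and was called under neither prior. The convertase gene Pcsk6, related to Furin, gave 0.07 ± 0.15 (SE), with overlapping groups. Of the secreted antagonists other than Lefty, Fst and Fstl3 were dim, at 94 to 142 and 6 to 42.5, and their groups overlapped.

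Smad partners and repressors numbered 7, with 0 passing the main test. Beside 9.43% of all genes, the robust prior called 3 of them lower. These were Smad4, the shared partner of the activated Smads (−0.30 ± 0.11), and the Smad co-repressor genes Ski (−0.53 ± 0.13) and Skil (−0.18 ± 0.07, SE in each case; limma adjusted p with that prior 0.0263, 0.00693 and 0.0377). The 2 further Smad4 probe sets gave −0.09 and −0.02, the second Ski probe set −0.14 and the second Skil probe set 0.06, none of them called, so these readings rest on 1 probe set each. Tgif1, a homeodomain co-repressor, averaged 5843 ± 457 and 6541 ± 150.0 (SD, n = 3 each) and passed under neither prior.

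Of 7 intracellular inhibitors and turnover factors 0 passed the main test and 3 were called lower by the robust prior, beside 9.43% of all genes. Smad7, the inhibitory Smad that is itself induced by the signal, read 1636, 1586 and 1657 in the control group and 1289, 880.5 and 1341 in the mimic group. One mimic array was much lower than the other 2, and the log2 fold change was −0.50 ± 0.18 (SE; limma adjusted p = 0.215, and 0.0414 with the robust prior). Pmepa1, a further Smad-induced inhibitor, read 1077, 942 and 959.9 and then 817, 792 and 805. The 2 brighter Pmepa1 probe sets gave log2 fold changes of −0.30 and −0.43 (limma adjusted p = 0.139 and 0.0827), and both were called lower by the robust prior. The second Smad7 probe set gave −0.24 and was not called. The ubiquitin ligase gene Smurf2 gave −0.34 ± 0.08 (SE) on its brightest probe set and −0.08 and −0.35, not called, on 2 others. Ppm1a, which encodes a Smad phosphatase, gave −0.06 ± 0.08 (SE; limma adjusted p = 0.731).

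Target genes of strong Nodal signalling in the mesendoderm stayed dim in both groups. Of 4 tested, 0 passed under either prior. Eomes stood at 109 ± 4.43 and 109.9 ± 14.8 (SD, n = 3 each), and Foxa2 at 16 to 60.4 over the arrays. Gsc, at 48.2, 49.0 and 73.2 on the control arrays and 17.1, 2.50 and 39.3 on the mimic arrays, had groups that did not overlap, but its mimic values were widely spread and its log2 fold change of −2.23 ± 1.04 (SE) did not pass (limma adjusted p = 0.313).

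**Figure D4:**
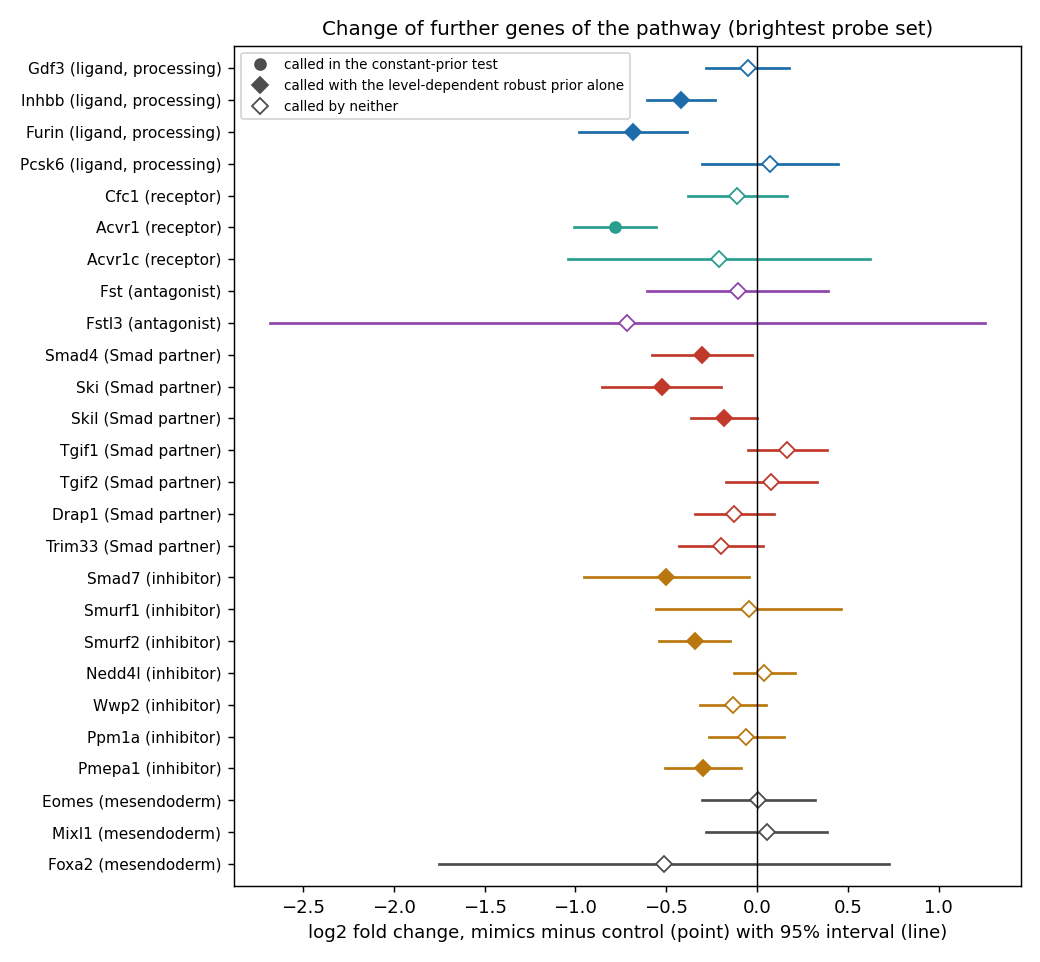
Log2 fold change of the mimic arrays against the control arrays (horizontal axis) for the brightest probe set of 26 of the 27 tested pathway genes, coloured by role, with the limma 95% interval as a line; Gsc is left out for its wide interval. Acvr1 alone was called in the main test, and the 8 filled diamonds (Inhbb, Furin, Smad4, Ski, Skil, Smad7, Smurf2 and Pmepa1), called with the robust prior, all lie below 0. That prior called 9.43% of all genes lower and 6.2% higher.

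The genes whose log2 values followed those of Lefty1 most closely over the 6 arrays were Mast3, a kinase gene, Cyba, a subunit gene of the NADPH oxidase, Ptgr1, a prostaglandin reductase gene, Tapbp, which encodes the peptide-loading factor tapasin, and Fam216a. Their Pearson correlations with Lefty1 were 0.999, 0.998, 0.998, 0.998 and 0.998. Over 2 groups such a correlation mainly follows the difference between the groups, and it is given as a description. For Lefty2 the correlation with Lefty1 was 0.974, and 222 of 13805 genes outside the loop reached at least that value.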

How the data were processed

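Total RNA was labelled as biotinylated cRNA and read on 6 Affymetrix arrays, per the labels. The authors deposited linear intensities, 1 per probe set and array. The submitters' processing notes name GCRMA, with no version given, but GCRMA output is usually log2, and the mean of each array without its lowest and highest 2% was 500.004, as a global scaling gives, so the tool behind the deposited intensities is not settled. Detection calls and probe sequences were not used here, and low values cannot be told from background.

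The intensities were log2-transformed with no offset and not normalized again. Of 45101 probe sets, 64 controls and 15870 with a mean log2 under 4 (a linear value of 16) were left out, which left 29167. Genes were named through the platform annotation (34958 probe sets with 1 symbol, 932 with several, 9211 not listed; 34754 matched RefSeq's GRCm38.p6 table by gene identifier, with 0 symbols changed). For each probe set the groups were compared by limma 3.58.1 (R 4.3.3; lmFit and eBayes, constant prior variance, two-sided, no covariates), with adjustment over all tested probe sets. Since the labels name no separate cultures, the p-values reflect the spread between samples, possibly technical alone. Tested on simulated arrays of this comparison (29167 probe sets), the main test recovered 50% of 2-fold and 18% of 1.5-fold changes, and the robust prior 60% and 34%. False calls numbered 10 and 7. The simulation changed 50 probe sets at each fold of 1.5, 2, 4 and 8. Recovery depends on the share of probe sets changed, so these percentages need not hold for the real arrays.

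Named were all members, the pathway genes that passed, up to 2 of the highest level in each list, and the 5 genes most correlated with Lefty1; further genes were picked once their values were known. The members and lists were chosen with earlier results of these data known. Other scales, offset, filters, prior, block and left-out arrays were tried. Same-numbered arrays showed no shared deviation (correlations −0.00612, 0.0123 and 0.0242), so the numbers were not used as pairs. An item of the pathway lists is not reported here.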

Additional observations from a re-analysis of the deposited data

How the results depend on the processing

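The direction of Lefty1, Lefty2, Nodal, Tdgf1, Acvr2a, Smad2 and Smad3 was the same under all 22 alternatives run. Lefty1 passed in 14 of them, Lefty2 in 13, Nodal in 10, Smad3 in 6 and Acvr2a in 1. Acvr2a passed with the filter at a mean log2 of 8 (−0.25, limma adjusted p = 0.0461). The sign turned for Foxh1 (from −0.093 to 0.11 without 1 array at a time, −0.10 with the mean of its probe sets), for Acvr2b (from −0.14 to 0.015 without 1 array at a time) and for Acvr1b (−0.095 with the mean of its probe sets), none of them called. The Acvr1b mean takes in the probe set below the filter (−0.38), while its tested probe set was at 0.19 and kept its sign in every other setting. The main test called 276 probe sets lower and 100 higher (0.946% and 0.343%), with 2 members lower and 0 higher. Median centring gave 103 and 50, with 1 member lower, and the offset of 16 gave 442 and 186. A filter at a mean log2 of 6 gave 1522 and 851, with 3 members lower and 1 higher, and one at 8 gave 1800 and 1200, with 4 members lower and 1 higher. The counts over all probe sets thus rose along with those of the members. Both filters left fewer than 29167 probe sets to test, and shares were not worked out for them. The robust prior gave 1914 and 1379, with 3 members lower and 1 higher, where it called 9.43% of all genes lower and 6.2% higher. With no filter limma called 0 and 0, with 0 members, although 3152 and 2493 probe sets had an unadjusted p under 0.05. With the replicate block limma also called 0 lower and 0 higher and 0 members (2994 and 2195 at an unadjusted p under 0.05), whereas the replicate block with the robust prior called 2030 and 1528, with 3 members lower and 1 higher. The replicate block left the within-array differences at −1.44, −1.60 and 0.16 (exact permutation p = 0.25 each, the smallest it can give). Without 1 array at a time, over both priors, the counts ran from 0 to 1600 lower and from 0 to 1244 higher, with 0 to 3 members lower and 0 to 1 higher; the constant prior gave 0 calls apart from 1 higher without control replicate 3, with 1880 to 3015 in each direction at an unadjusted p under 0.05. The cause of these differences was not tested.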
